A study of Mus musculus with 12 samples.

Results

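The 10 laminin and nidogen genes Lama1, Lama2, Lama3, Lama4, Lama5, Lamb1, Lamb2, Lamc1, Nid1 and Nid2 were followed in 2 mouse testis cell lines after knockdown of the muscarinic receptor M5. They were chosen by gene symbol, and all 10 were among the 17995 genes with values. RNA-seq was available for C18-4 cells, a line of spermatogonial stem cells, and for TM4 cells, a line of Sertoli cells. In each line 3 libraries came from cells that received control shRNA (shNC) and 3 from cells that received a mix of 3 shRNAs against M5 (shM5), 12 libraries in all. Both lines carry the strain label IRC, and the labels give no age. Each cell type was represented by 1 line, and the lines were kept in different media, so line, medium and origin cannot be told apart. Nothing states that the replicates were separate cultures, so the p-values measure only the spread between these libraries. Levels are given as RPKM, read counts scaled by gene length and library size, which allows genes of different length to be set side by side.

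Laminins are the cross-shaped proteins of the basement membrane, and each is a trimer of an α, a β and a γ chain made from separate genes. The trimers polymerise on the cell surface, where integrins and dystroglycan hold them. Nidogens bind the laminin γ1 chain and collagen IV and link the laminin and collagen networks. In the seminiferous tubule the Sertoli cells and the spermatogonia both rest on such a membrane.

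Promoter sequences are shown for the genes that differed most between lines or treatments among those with an entry, Lama5 and Nid1, and for the β chain pair Lamb1 and Lamb2. They run from 250 bases before to 50 bases after the start of the gene on its own strand and were taken from RefSeq (GRCm38.p6), matched by gene identifier. Entries were found for 5 of the 10 genes, these 4 and Lama2. Entries for Lama1, Lama3, Lama4, Lamc1 and Nid2 were not used here. Capitals mark each GC box, GGGCGG on either strand, the motif bound by Sp1 and related factors. The build of the deposited values is not given in the sources used here, so the positions belong to the reference only.
Lama5, chr2:180225810-180226109, minus strand: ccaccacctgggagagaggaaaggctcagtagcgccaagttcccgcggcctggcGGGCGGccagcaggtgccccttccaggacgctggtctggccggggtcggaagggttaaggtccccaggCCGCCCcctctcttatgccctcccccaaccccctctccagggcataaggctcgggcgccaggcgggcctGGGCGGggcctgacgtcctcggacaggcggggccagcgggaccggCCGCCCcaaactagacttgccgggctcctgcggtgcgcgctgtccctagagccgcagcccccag
Nid1, chr13:13437352-13437651, plus strand: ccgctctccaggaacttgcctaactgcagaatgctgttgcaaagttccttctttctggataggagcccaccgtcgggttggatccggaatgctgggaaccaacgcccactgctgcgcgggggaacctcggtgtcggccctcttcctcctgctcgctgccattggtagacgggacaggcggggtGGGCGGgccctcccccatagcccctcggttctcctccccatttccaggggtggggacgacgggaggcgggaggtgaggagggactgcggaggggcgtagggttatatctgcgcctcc
Lamb1, chr12:31265043-31265342, plus strand: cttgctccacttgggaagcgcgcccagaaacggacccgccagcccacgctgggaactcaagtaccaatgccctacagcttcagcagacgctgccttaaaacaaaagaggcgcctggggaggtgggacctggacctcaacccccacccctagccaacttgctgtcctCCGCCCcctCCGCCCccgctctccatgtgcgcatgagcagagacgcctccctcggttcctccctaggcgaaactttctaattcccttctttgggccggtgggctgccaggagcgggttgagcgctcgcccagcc
Lamb2, chr9:108479612-108479911, plus strand: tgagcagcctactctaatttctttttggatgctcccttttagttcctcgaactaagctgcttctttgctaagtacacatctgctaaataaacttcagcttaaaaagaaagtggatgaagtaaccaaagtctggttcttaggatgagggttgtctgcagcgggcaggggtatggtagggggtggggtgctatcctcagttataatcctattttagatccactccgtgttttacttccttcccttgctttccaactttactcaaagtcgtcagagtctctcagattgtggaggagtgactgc

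The Lama5 sequence held 4 GC boxes, Lamb1 held 2, Nid1 held 1 and Lamb2 held none. A GC box was present in 35.7% of the 32851 promoters of the same length. G and C made up 72.7% of the Lama5 sequence, 64.7% of Nid1, 63.7% of Lamb1 and 44.0% of Lamb2, beside a median of 52.7% over all promoters. A CCAAT box (CCAAT on either strand, found in 37.4% of all promoters) was present once in Lamb1 and once in Nid1, and neither overlapped a GC box. None of the 4 sequences held a TATA box written as TATAAA (13.6% of all promoters), an E-box written as CACGTG (7.15%) or an AP-1 site written as TGACTCA (5.2%), each searched on both strands. These matches describe the letters in these windows only.

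M5 itself (Chrm5) was listed at 0 or 0.01 RPKM in all 12 libraries, so the knockdown could not be checked at the RNA level. The study reported less M5 protein after shM5 in both lines, seen by immunofluorescence staining. A single read was worth nearly the same in each library (0.979 to 1.02 times their middle value), and 0.01 RPKM stood for about 0.597 to 1.4 reads of these genes. The library of TM4 shNC replicate 3 stood apart from its group: its distance to the 3 TM4 shM5 libraries, as the root mean square log2 difference over genes, was 0.202 to 0.257, and to the other TM4 shNC libraries 0.640 and 0.642. In C18-4 cells, replicate 3 of shNC and of shM5 deviated from their groups in the same direction. Of 9 spermatogonial markers analysed, 2 reached a mean of 1 RPKM in C18-4 cells (Id4 and Etv5). Kit was listed at 0 there, Gfra1 was at 0.12 to 0.34 RPKM, and Ret, Zbtb16, Ddx4, Dazl and Lin28a did not pass 0.05 RPKM. Id4 was higher in C18-4 cells (1.64 to 4.71 RPKM) than in TM4 cells (0 to 0.2 RPKM). Etv5 was higher in TM4 cells (5.98 to 7.49 RPKM) than in C18-4 cells (1.63 to 2.29 RPKM). The Sertoli transcription factor gene Wt1 was at 53.9 to 72.3 RPKM in C18-4 cells and at most 0.15 RPKM in TM4 cells. Of 9 Sertoli markers analysed, 5 reached a mean of 1 RPKM in TM4 cells, among them Sox9 (1.11 to 1.74 RPKM), and Amh did not pass 0.19 RPKM. The sum of 5 fibroblast markers was 404 to 532 RPKM in C18-4 cells and 1231 to 1735 RPKM in TM4 cells. Among the 5, Lum did not pass 0.15 RPKM in any library and Col1a2 did not pass 0.19 RPKM in C18-4 cells. The lines are therefore named here by their labels, with these marker levels in view.

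The plainest difference lay in the α chains. C18-4 cells carried 1 α chain transcript at a high level, Lama5, and in TM4 cells no α chain reached 1 RPKM. Lama5, the α chain of many epithelial basement membranes, was at 30.4, 34.6 and 48.6 RPKM in C18-4 shNC and at 31.0, 33.2 and 41.9 RPKM in C18-4 shM5. In TM4 cells it was between 0.02 and 0.04 RPKM in all 6 libraries, a level of a few reads. Lama3, the α chain of the laminin of skin and other epithelia that face abrasion, showed the opposite order at a far lower level. It was at 0.72, 0.87 and 0.43 RPKM in TM4 shNC and at 0.36, 0.44 and 0.38 RPKM in TM4 shM5, and between 0 and 0.07 RPKM in C18-4 cells. Lama2, the chain of muscle and peripheral nerve, was between 0.01 and 0.04 RPKM in every library. Lama1, known from embryonic basement membranes, was listed at 0 in 11 of 12 libraries, and Lama4, known from blood vessels, in 10 of 12. Values of 0.01 to 0.04 RPKM stand for at most a few reads per library, so at this depth no difference between groups was detectable for these 3 chains. In extracts of whole cultures, fewer cells that make a transcript and less transcript per cell cannot be told apart.

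**Figure D1:**
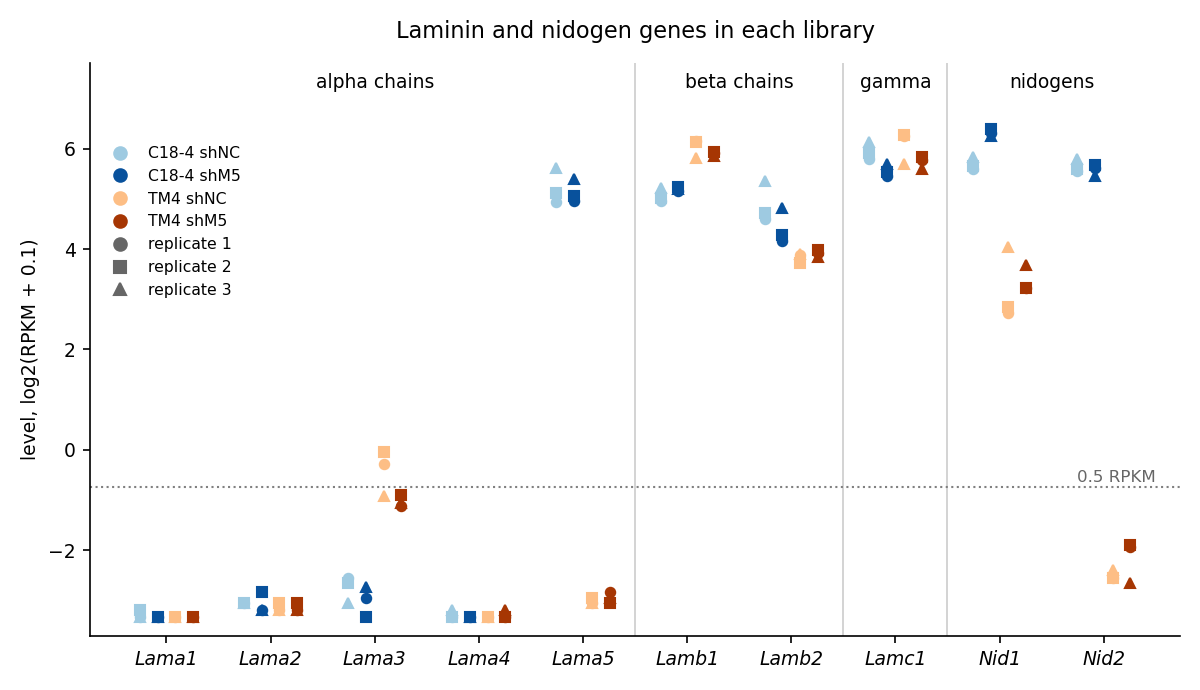
Level of the 10 genes in each of the 12 libraries on the scale log2(RPKM + 0.1), by line, treatment (colour) and replicate (symbol); the dotted line is 0.5 RPKM. Lama5 and Nid2 lie above 30 RPKM in all 6 C18-4 libraries and below 0.2 RPKM in all 6 TM4 libraries, and Lamb1, Lamb2, Lamc1 and Nid1 are above 6 RPKM in both lines.

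The β and γ chains were present in both lines. Lamb1, the common β chain, had a lowest, median and highest level of 30.8, 36.0 and 37.7 RPKM over the 6 C18-4 libraries and of 56.0, 60.7 and 71.3 RPKM over the 6 TM4 libraries. The lines did not overlap, and TM4 cells were higher. Lamb2, the β chain known from the neuromuscular junction and the kidney filter, was at 17.9, 25.2 and 40.6 RPKM in C18-4 cells and at 13.1, 14.8 and 15.6 RPKM in TM4 cells by the same 3 measures. Here C18-4 cells were higher, also without overlap. Lamc1, the γ chain of most laminins, was at 43.8, 53.6 and 69.6 RPKM in C18-4 cells and at 48.0, 55.6 and 76.9 RPKM in TM4 cells, and the lines overlapped over most of their range.

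Both nidogens were higher in C18-4 cells. Nid1 had a lowest, median and highest level of 47.9, 66.6 and 83.6 RPKM in C18-4 cells and of 6.5, 9.23 and 16.3 RPKM in TM4 cells. Nid2 was at 43.8, 48.7 and 55.2 RPKM in C18-4 cells and at 0.06, 0.08 and 0.17 RPKM in TM4 cells. C18-4 cells thus carried both nidogens at 43.8 RPKM or more, and TM4 cells carried Nid1 at a lower level with Nid2 close to 0.

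Within each group of 3 libraries the genes were ordered by mean level, since the order differed between shNC and shM5. In C18-4 shNC it was Lamc1 (61.7 ± 7.18 RPKM, SD), Nid1 (51.75 ± 4.89), Nid2 (50.1 ± 4.51), Lama5 (37.9 ± 9.51), Lamb1 (33.5 ± 3.31) and Lamb2 (30.35 ± 8.93), and each neighbouring pair overlapped in range. In C18-4 shM5 it was Nid1 (79.5 ± 3.81 RPKM, SD), Nid2 (48.0 ± 3.70), Lamc1 (47.1 ± 4.00), Lamb1 (36.6 ± 1.20), Lama5 (35.4 ± 5.78) and Lamb2 (21.8 ± 5.66). There Nid1 stood clear of Nid2, Lamc1 of Lamb1 and Lama5 of Lamb2, and the other neighbours overlapped. In TM4 shNC the order was Lamc1 (68.3 ± 14.4 RPKM, SD), Lamb1 (65.8 ± 8.54), Lamb2 (14.2 ± 0.960), Nid1 (9.96 ± 5.47) and Lama3 (0.673 ± 0.224), with overlap between Lamc1 and Lamb1 and between Lamb2 and Nid1. In TM4 shM5 it was Lamb1 (59.8 ± 1.59 RPKM, SD), Lamc1 (53.1 ± 4.57), Lamb2 (15.0 ± 0.654), Nid1 (10.4 ± 2.05) and Lama3 (0.393 ± 0.0416), with no overlap between neighbours.

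The lines were compared with limma in 1 fit of all 12 libraries, on log2(RPKM + 0.1) for 11773 genes whose mean reached 0.5 RPKM, with Benjamini-Hochberg adjustment over all of them and a call at an adjusted p below 0.05. Of the 10 genes 6 could be tested, and Lama5 and Nid2 passed the filter only through C18-4 cells, so the count of calls is no support in itself. Lama5 was higher in C18-4 cells by 8.16 (log2, SE 0.128, adjusted p = 1.60e-13), Nid2 by 7.95 (SE 0.131, adjusted p = 2.25e-13) and Nid1 by 2.71 (SE 0.196, adjusted p = 1.35e-07). Lamb2 was higher by 0.78 (SE 0.141, adjusted p = 0.000355) and Lamb1 was lower, at -0.84 (SE 0.0715, adjusted p = 6.22e-07). Lamc1 differed by -0.15 (95% interval -0.38 to 0.08, adjusted p = 0.221) and was not called. These 5 calls of 6 stand beside 73.0% of all genes tested, and the 5 called were also the 5 of 6 whose lines did not overlap, beside 52.8% of all genes.

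A call between the lines was thus common in these data. The median over all genes tested was 0.14 higher in C18-4 cells, and relative to it Lamb2 lay at 0.64, Lamb1 at -0.98 and Lamc1 at -0.29. The sizes for Lama5 and Nid2 depend on the pseudocount, as their TM4 levels lie near 0: Lama5 ranged from 5.17 to 9.97 and Nid2 from 5.5 to 8.86 over the alternatives. Lamc1 was called with libraries rescaled by the median ratio (-0.25, adjusted p = 0.0487), without TM4 shNC replicate 3 (-0.24, adjusted p = 0.00886) and without replicate 3 of all groups (-0.36, adjusted p = 3.76e-06). Lama3, under the filter in this fit, was lower in C18-4 cells by 2.16 on the log2 scale when no filter was set (adjusted p = 5.7e-07). Over all genes 5163 were higher and 3433 lower in C18-4 cells, and this split turned to 4209 and 4439 with quantile normalization.

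Set against their own class, the chains gave each line its own composition. Shares are of the summed RPKM of the class within a library and are a description with no test. Lama5 made up 99.7% to 99.9% of the α chain RPKM in the C18-4 libraries. In TM4 cells Lama3 made up 87.8% to 96.0% of it, but the α chain sum was only 0.41 to 0.92 RPKM, beside 71.0 to 85.9 RPKM for the β chains and 48.0 to 76.9 RPKM for Lamc1. In C18-4 cells the levels were closer, at 30.5 to 48.6 RPKM for the α sum, 53.2 to 77.8 RPKM for the β sum and 43.8 to 69.6 RPKM for Lamc1. TM4 cells thus held abundant β and γ1 chain transcripts with little α chain transcript of any of the 5 genes.

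Lamb1 made up 78.9% to 84.2% of the β chain RPKM in TM4 cells and 47.8% to 66.4% in C18-4 cells, and the rest was nearly all Lamb2. Lamb3, the β chain that joins Lama3, did not pass 0.06 RPKM in any library. Nid1 made up at least 98.2% of the nidogen RPKM in TM4 cells.

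**Figure D2:**
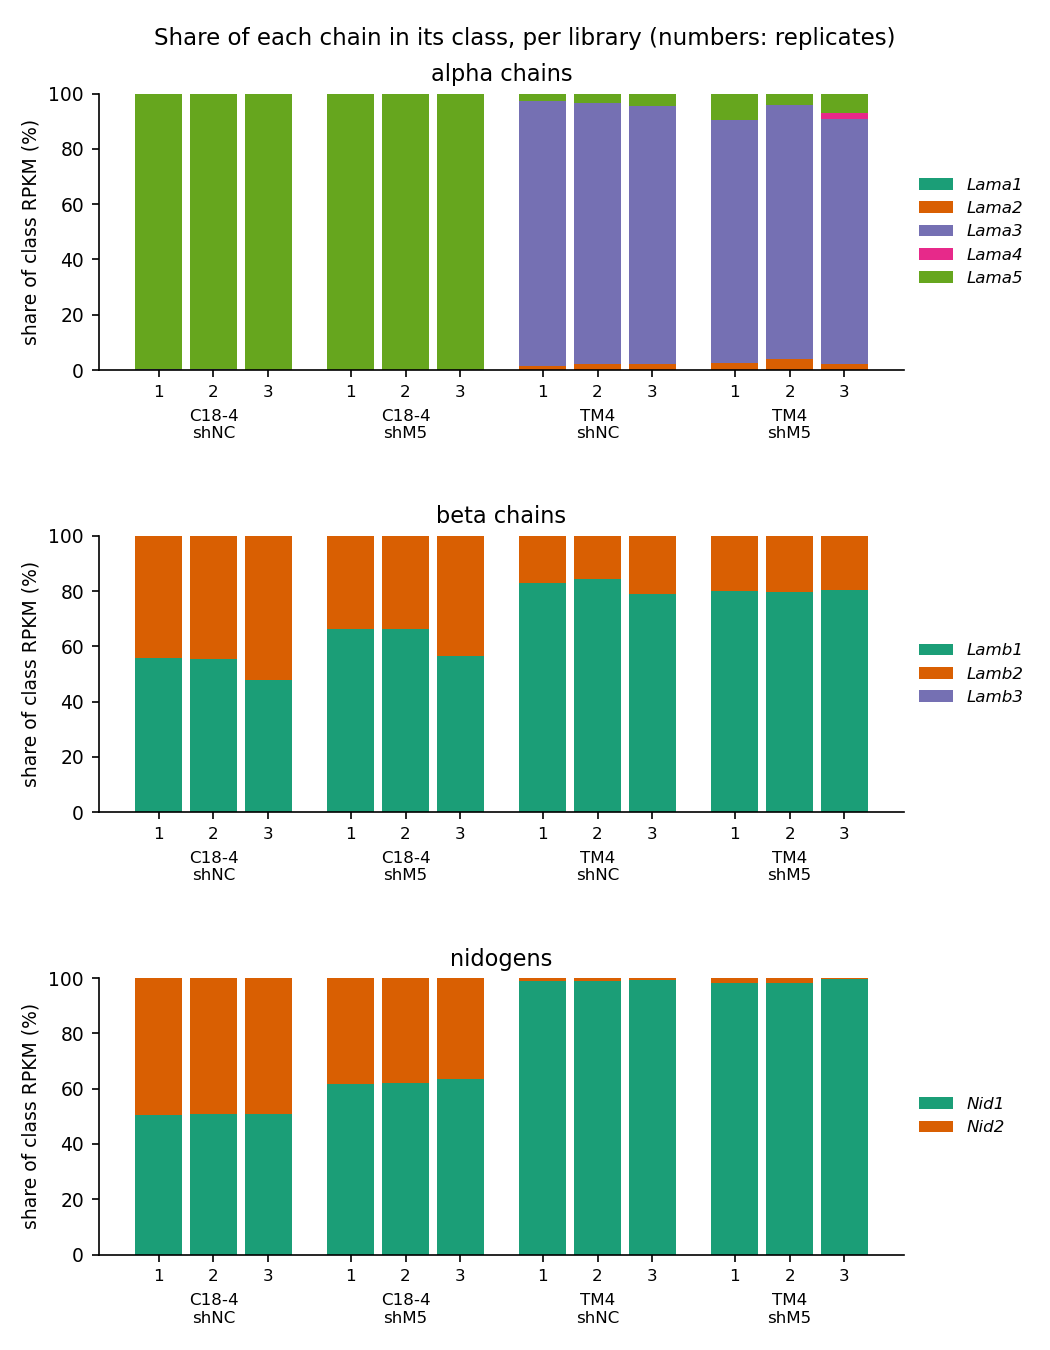
Share (%) of each chain in the summed RPKM of its class in each of the 12 libraries, 1 bar per library with the replicate number below it. The α class is nearly all Lama5 in C18-4 cells and mostly Lama3 in TM4 cells, where its sum is at most 0.92 RPKM, and the Nid1 share in C18-4 cells is 50.6% to 51.0% in shNC and 61.6% to 63.4% in shM5.

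Within C18-4 cells the question was whether M5 knockdown changed these genes. Nid1 was higher in shM5, Lamc1 and Lamb2 were at lower values in shM5 without a call, and Lama5, Lamb1 and Nid2 showed differences within their spread. Nid1 was at 47.9, 50.1 and 57.2 RPKM in shNC and at 79.1, 83.6 and 76.0 RPKM in shM5. The groups did not overlap, and the difference was 0.62 (log2, SE 0.0868, adjusted p = 0.0410, limma over 11611 genes of this line, with the same filter). Nid1 was the only one of the 6 genes tested to be called, beside 0.586% of all genes. Nid2 overlapped between the groups, at 46.8, 48.3 and 55.2 RPKM in shNC and at 49.2, 50.9 and 43.8 RPKM in shM5, with a difference of -0.06 (95% interval -0.28 to 0.16, adjusted p = 0.876). The ratio of Nid1 to Nid2 was 1.02, 1.04 and 1.04 in the shNC libraries and 1.61, 1.64 and 1.73 in the shM5 libraries. The pair was thus near equal in shNC, and Nid1 exceeded Nid2 in every shM5 library by more than in any shNC library.

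The Nid1 call was a narrow one. It was lost without shNC replicate 1 (adjusted p = 0.204), shNC replicate 2 (0.238), shM5 replicate 1 (0.251), shM5 replicate 2 (0.256) or shM5 replicate 3 (0.0697) and held without shNC replicate 3 (0.0137), while the difference stayed between 0.57 and 0.70 on the log2 scale. It was also lost with no filter on low values (0.0658) and without a mean-variance trend (0.0660). With the replicate number as a block the adjusted p was 0.00287. The block was tried as same-numbered C18-4 libraries deviated together, though only replicate 3 stood apart from the other numbers.

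Lamc1 was at 55.6, 59.8 and 69.6 RPKM in shNC and at 43.8, 46.0 and 51.6 RPKM in shM5. The groups did not overlap, as in 2 of the 6 genes (Lamc1 and Nid1) beside 18.9% of all genes tested. The difference of -0.38 (SE 0.106, adjusted p = 0.207) was not called without the block and was called with it (adjusted p = 0.00367). Lamb2 was at 24.3, 26.2 and 40.6 RPKM in shNC and at 17.9, 19.2 and 28.3 RPKM in shM5, so that replicate 3 was the highest of each group and the groups overlapped. Its difference of -0.47 (SE 0.239, adjusted p = 0.514) was likewise not called without the block and was called with it (adjusted p = 0.00296). Under the block Nid1, Lamc1 and Lamb2 were the 3 called of 6 genes, beside 11.9% of all genes. Without replicate 3 of both groups, and with no block, the same 3 were called. Lamb1 joined them there, higher in shM5 by 0.21 (adjusted p = 0.0179). These 4 of 6 stand beside 26.2% of all genes called in that fit.

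The remaining genes of C18-4 cells gave no call with or without the block. Lama5 differed by -0.08 (95% interval -0.53 to 0.36, adjusted p = 0.931), and as with Lamb2 the highest value of each group was in replicate 3. Lamb1 was at 30.8, 32.5 and 37.2 RPKM in shNC and at 35.3, 37.7 and 36.6 RPKM in shM5, a difference of 0.13 (95% interval -0.08 to 0.34, adjusted p = 0.644). The ratio of Lamb1 to Lamb2 was 1.27, 1.24 and 0.916 in shNC and 1.98, 1.96 and 1.30 in shM5. Each shM5 ratio was above all shNC ratios, for shM5 replicate 3 by a narrow margin. The summed RPKM of 5 ATF4 stress genes (Ddit3, Trib3, Chac1, Asns and Atf3) was 742 and 722 in replicate 3 of shNC and shM5 and 382 to 394 in the other C18-4 libraries. The sum of 5 smooth muscle markers was 61.9 to 77.9 RPKM in shNC and 113 to 158 RPKM in shM5, and 4 of the 5 had a mean of at least 1 RPKM. Acta2 (15.9 to 23.7 against 34.6 to 61.8 RPKM) and Tagln (35.96 to 48.8 against 69.4 to 93.3 RPKM) made up most of it, while Des (4.26 to 6.6 against 4.59 to 5.62 RPKM) and Cnn1 (3.22 to 3.41 against 3.24 to 3.66 RPKM) overlapped and Myh11 did not pass 0.07 RPKM. The part of either in these differences was not tested.

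**Figure D3:**
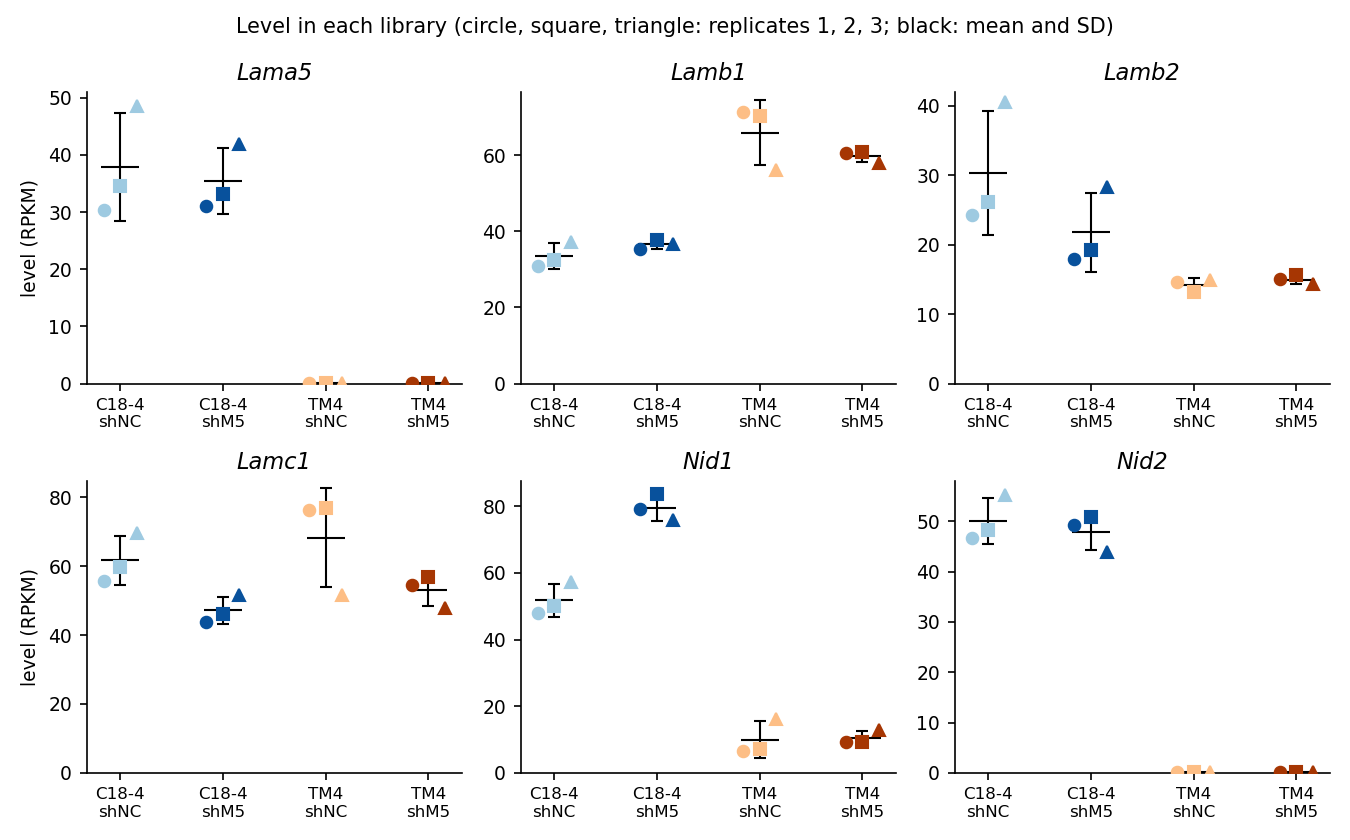
Level (RPKM) of the 6 genes tested in C18-4 cells, in each library by line and treatment, with symbols for replicates 1, 2 and 3 and a black bar for the mean and SD of each group of 3. Nid1 in C18-4 cells lies at 47.9 to 57.2 RPKM in shNC and at 76.0 to 83.6 RPKM in shM5, and Lama5 and Lamb2 are highest in replicate 3 of both C18-4 groups.

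In TM4 cells no laminin or nidogen gene was called. limma called 0 of 11016 genes (0.0%) in this line, with 2866 at an unadjusted p below 0.05, and of the 5 genes tested (Lama3, Lamb1, Lamb2, Lamc1 and Nid1) none was under that level either. Lama3 entered this test with a mean of 0.533 RPKM, just above the filter. None of the 5 had groups without overlap, beside 26.8% of all genes tested. For Lama3, Lamb1, Lamc1 and Nid1, TM4 shNC replicate 3 lay among the shM5 libraries or beyond them, away from the other 2 shNC libraries.

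Lamc1 was at 76.3, 76.9 and 51.6 RPKM in TM4 shNC and at 54.5, 56.8 and 48.0 RPKM in TM4 shM5. Replicates 1 and 2 of shNC were above all shM5 libraries and replicate 3 was among them, and the difference was -0.34 (95% interval -0.75 to 0.07, adjusted p = 0.210). Lamb1 was at 71.3, 70.2 and 56.0 RPKM in shNC and at 60.5, 60.9 and 58.0 RPKM in shM5, a difference of -0.13 (95% interval -0.39 to 0.13, adjusted p = 0.395). Nid1 showed the reverse arrangement, at 6.5, 7.11 and 16.3 RPKM in shNC and at 9.18, 9.28 and 12.8 RPKM in shM5, a difference of 0.18 (95% interval -0.69 to 1.04, adjusted p = 0.728). For each of these 3 genes shNC replicate 3 was the shNC library farthest from the rest of its group. Lama3 differed by -0.61 (95% interval -1.30 to 0.08, adjusted p = 0.201). Lamb2 was at 14.6, 13.1 and 14.9 RPKM in shNC and at 15.1, 15.6 and 14.3 RPKM in shM5, a difference of 0.08 (95% interval -0.14 to 0.29, adjusted p = 0.539).

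Without TM4 shNC replicate 3 the same test called 67.4% of all genes, and 4 of the 5 genes. Lamc1 was then lower in shM5 by 0.53 on the log2 scale (adjusted p = 0.000349), Lamb1 by 0.24 (adjusted p = 0.00137) and Lama3 by 0.86 (adjusted p = 0.0146), and Nid1 was higher by 0.59 (adjusted p = 0.00750). Lamb2 differed by 0.11 (adjusted p = 0.182). With that share over all genes, these calls say nothing particular about laminins. The ATF4 stress sum was 969 RPKM in each of TM4 shNC replicates 1 and 2, 263 RPKM in shNC replicate 3 and 227 to 247 RPKM in shM5. The sum of the 5 smooth muscle markers was 122 to 250.02 RPKM in TM4 shNC and 231 to 350 RPKM in TM4 shM5, with 3 of the 5 at a mean of at least 1 RPKM and nearly all of the sum in Acta2 and Tagln. Acta2 was at 66.4 and 63.3 RPKM in TM4 shNC replicates 1 and 2, 140 RPKM in shNC replicate 3 and 142 to 194 RPKM in shM5. Tagln was at 59.3, 57.2 and 107 RPKM in shNC replicates 1, 2 and 3 and 86.2 to 153 RPKM in shM5. The stress sum, Acta2 and Tagln thus moved with the same split of the libraries. The part of either sum in the differences was not tested.

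**Figure D4:**
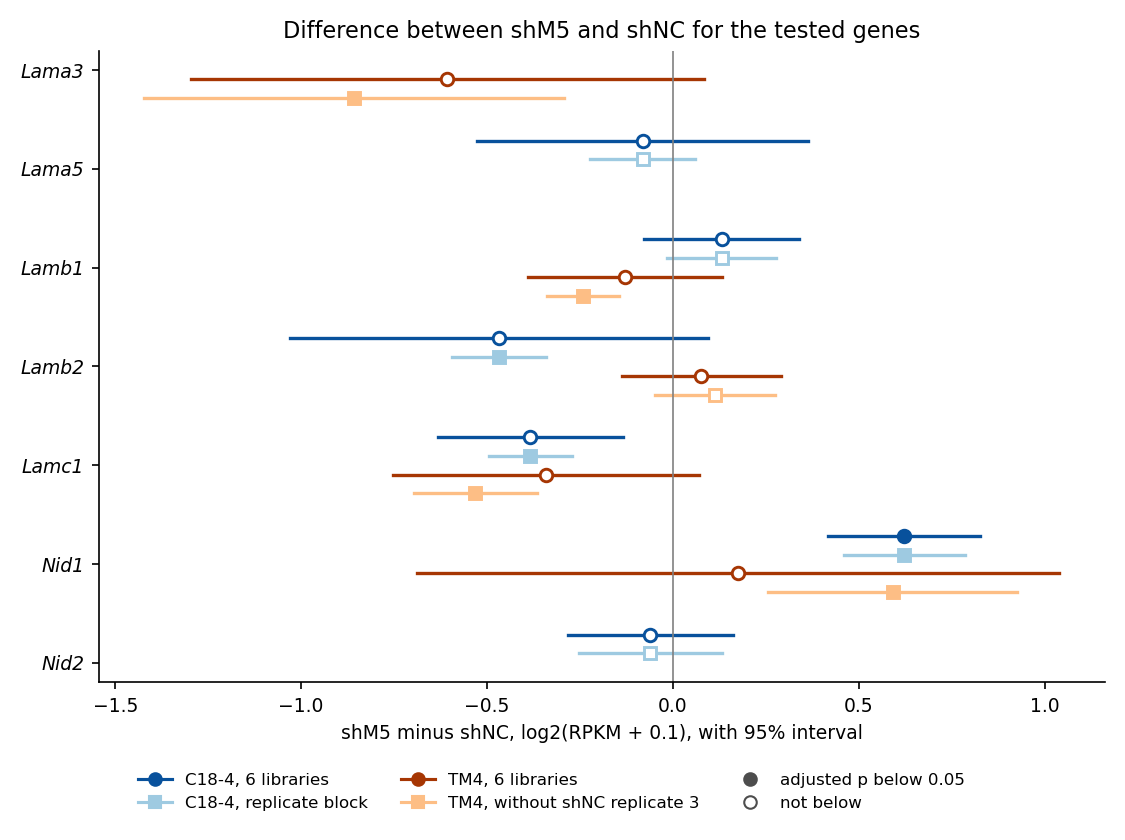
Difference between shM5 and shNC on the scale log2(RPKM + 0.1) with its 95% interval for the 7 genes tested in either line, in C18-4 cells without and with the replicate block and in TM4 cells with all 6 libraries and without shNC replicate 3; filled symbols have an adjusted p below 0.05. Nid1 in C18-4 cells is at 0.62 in both fits, and in TM4 cells it moves from 0.18 to 0.59 when shNC replicate 3 is left out.

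Whether shM5 acted on these genes to a different extent in C18-4 and TM4 cells was asked with the interaction term of the 12-library fit. None of the 6 genes tested was called by limma, beside 0.102% of all genes. None had an unadjusted p below 0.05, beside 2463 of 11773 genes in all. Lama5 and Nid2 entered this fit only through C18-4 cells. In TM4 cells they were at 0.02 to 0.04 and 0.06 to 0.17 RPKM, too low to compare the effect of shM5 between the lines. The largest estimates were -0.54 for Lamb2 (95% interval -1.16 to 0.07, adjusted p = 0.278) and 0.45 for Nid1 (95% interval -0.42 to 1.31, adjusted p = 0.493). The intervals were wide, so the higher Nid1 of C18-4 shM5 was not shown to differ from its value in TM4 cells. Without TM4 shNC replicate 3, 38.0% of all genes were called and Lamb1 was the only one of the 6, at 0.37 (adjusted p = 0.0168), while the estimate for Nid1 was 0.03 (adjusted p = 0.908). Lamb1 was then at higher values in shM5 in C18-4 cells and lower in TM4 cells.

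The other genes of the basement membrane were taken as a list of 43 genes by role, all with values. In C18-4 cells 31 could be tested and 1 was called, Fbln2, again beside 0.586% of all genes. Fbln2, whose protein binds nidogen and laminin, was at 273, 276 and 239 RPKM in shNC and at 169, 175 and 171 RPKM in shM5. It was lower by 0.61 on the log2 scale (SE 0.0755, adjusted p = 0.0367), without overlap. The call was lost under median-ratio scaling (adjusted p = 0.0590), with no filter, without the trend, at the threshold of the study and, as for Nid1, without any 1 C18-4 library other than shNC replicate 3 (adjusted p from 0.0697 to 0.251). With the replicate block 7 of the 31 were called, beside 11.9% of all genes. Bcam, Col4a1, Col4a2, Itgb1 and Tinagl1 were then higher in shM5 and Fbln1 and Fbln2 lower.

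The 2 chains of the main collagen IV, which forms the second network of the membrane, shifted side by side in C18-4 cells. Col4a1 was at 154, 158 and 133 RPKM in shNC and at 194, 198 and 174 RPKM in shM5 (0.35, adjusted p = 0.179, and 0.00329 with the block). Col4a2 was at 88.4, 92.7 and 82.8 RPKM in shNC and at 121, 125 and 106 RPKM in shM5 (0.42, adjusted p = 0.104, and 0.00258 with the block). Their ratio in C18-4 cells was 1.61 to 1.74 in shNC and 1.59 to 1.63 in shM5. The direction of the difference was not particular to this line. In TM4 cells both chains were also higher in every shM5 library than in any shNC library, without a call. Groups without overlap made up 26.8% of all genes tested there. Col4a1 did not pass 54.35 RPKM in TM4 shNC and was at 56.62 RPKM or more in TM4 shM5. For Col4a2 these limits were 40.56 and 41.42 RPKM. Among the receptors, Bcam, which binds the laminin α5 chain, was at 32.2, 33.0 and 50.03 RPKM in C18-4 shNC and at 55.9, 56.2 and 59.0 RPKM in C18-4 shM5 (0.60, adjusted p = 0.208, and 0.0119 with the block). Itgb1, the shared β subunit of the laminin integrins, was at 269 to 273 RPKM in shNC and at 311 to 326 RPKM in shM5 (0.24, adjusted p = 0.159, and 0.0119 with the block). Lama5, the ligand of Bcam, was not called in either fit.

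By role in C18-4 cells without the block, 0 of 6 network collagens, 0 of 2 proteoglycans and 0 of 7 laminin receptors were called by limma, and 9 of the 31 list genes had an unadjusted p below 0.05, beside 1425 of 11611 genes in all. All 7 receptors tested were at higher values in shM5 (median 0.24, beside -0.0024 over all genes), and the 6 network collagens had a median of 0.38. Of the 9 other basement membrane proteins tested, 4 were at higher and 5 at lower values, with a median of -0.11. In TM4 cells 0 of 23 genes were called, with 9 at an unadjusted p below 0.05 beside 2866 of 11016 genes in all, and without shNC replicate 3 the number called was 19 of 23, beside 67.4% of all genes. These 19 included Dag1, the gene of dystroglycan, at 20.5, 20.1 and 47.0 RPKM in shNC and at 46.5, 49.2 and 45.1 RPKM in shM5 (1.20, adjusted p = 1.56e-06). TM4 shNC replicate 3 held a Dag1 value like those of shM5. In the interaction 0 of 28 were called, beside 0.102% of all genes. Of these 28, 8 had an unadjusted p below 0.05, beside 2463 of 11773 genes in all.

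Between the lines 27 of 28 list genes tested were called, 22 higher and 5 lower in C18-4 cells, beside the same 73.0% of all genes. Of the 28, Bcam, Itga1, Npnt, Ntn1 and Ntn4 passed the filter only through C18-4 cells, so the count and its split are partly set by the filter. Bcam was listed at 0 in all 6 TM4 libraries, the line in which Lama5 was near 0 as well. Sparc, a collagen-binding matrix protein, was at 1179 to 1313 RPKM in C18-4 cells and at 63.6 to 169 RPKM in TM4 cells (3.52, adjusted p = 5.48e-10). Among the integrin α subunits that receive laminin, Itga3 was higher in C18-4 cells (76.0 to 85.7 RPKM against 13.9 to 28.6 RPKM, 1.90, adjusted p = 5.40e-08), and so was Itga7 (4.09 to 6.02 RPKM against 0.82 to 1.14 RPKM, 2.24, adjusted p = 4.59e-09). Itga6 was lower in C18-4 cells (4.86 to 5.48 RPKM against 14.8 to 18.7 RPKM, -1.73, adjusted p = 5.36e-10). The lines thus differed in the receptor set as well as in the chains. Hspg2, the gene of the proteoglycan perlecan, was at 36.2 to 54.8 RPKM in C18-4 cells and at 24.98 to 34.9 RPKM in TM4 cells (0.64, adjusted p = 2.30e-05).

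**Figure D5:**
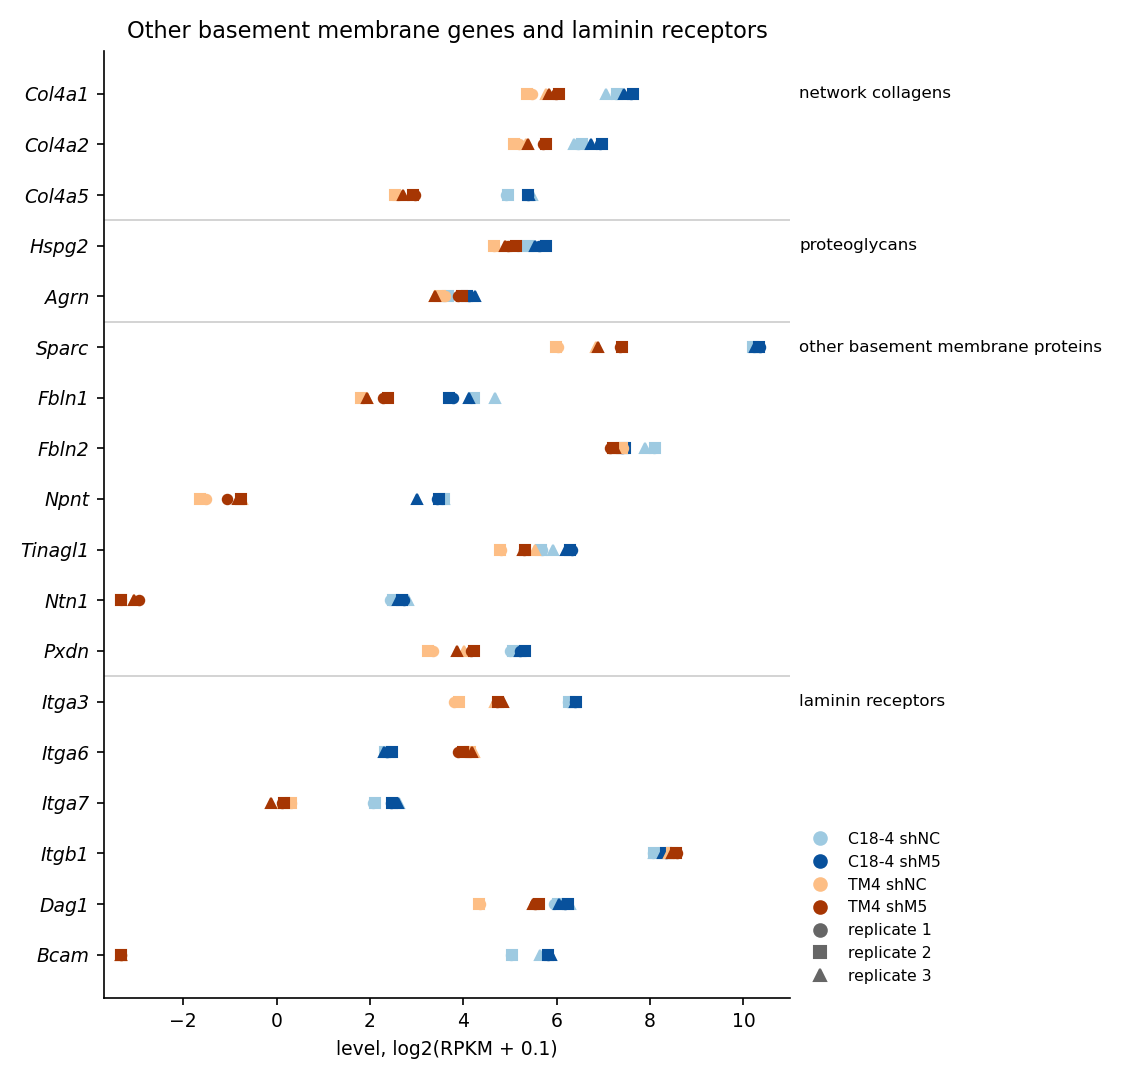
Level of the collagens, proteoglycans, other matrix proteins and receptors of the list whose mean reached 5 RPKM in either line, on the scale log2(RPKM + 0.1), in each of the 12 libraries and grouped by role, with colour for line and treatment and symbol for replicate. Bcam and Ntn1 lie at or near 0 RPKM in TM4 cells, Itga6 and Itgb1 lie to the right in TM4 cells, and Sparc is at 1179 RPKM or more in all C18-4 libraries.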

How the data were processed

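mRNA from C18-4 and TM4 cells, 3 libraries each of shNC and shM5, was sequenced on an Illumina instrument. The authors used SOAPaligner against a set of reference genes and deposited RPKM values, rounded to 2 decimals, for 17995 genes in 1 table. The genome build and the annotation are not given in the sources used here. RPKM values hold no counts, so no count model was used, and log2 differences of low genes are understated by the pseudocount. The table holds 0 columns of no sample in this series. From the values of the lowest genes, with transcript lengths of a public annotation, a library held about 12300000 reads.

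Groups were taken from the labels. Values were transformed to log2(RPKM + 0.1), genes with a mean under 0.5 RPKM in the libraries of a fit were left out, and limma 3.58.1 (R 4.3.3) was fitted with a mean-variance trend, for each line over its 6 libraries and for the line contrast and the interaction over all 12. P-values were adjusted by Benjamini-Hochberg over all genes tested, with a call at 0.05, and intervals are 95%. No replicate block was used. In C18-4 cells the deviations of same-numbered libraries from their group means correlated at 0.439, 0.409 and 0.631. The numbers were taken to pair them, and values with the block are given where a call changed. Replicates 1 and 2 also correlated across numbers, at 0.341 and 0.345. Only replicate 3 stood apart, and the pairing of replicates 1 and 2 by number is not established. The main fits were run on simulated data with 200 genes changed by 1 on the log2 scale. They recovered 55.0% to 87.5% of these genes, with 3 to 7 wrong calls. Noise there was drawn separately for each gene and library. Shifts that many genes of 1 library share, as in replicate 3, were therefore not covered. Alternatives covered the pseudocount, the filter, the scaling, the trend, the threshold of the study (an FDR of 0.001 and an absolute log2 difference of 1), the block and left-out libraries. The block together with the threshold of the study was added after seeing the data.

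Named are the 10 genes, the genes of the basement membrane list that were called or had a mean of at least 5 RPKM in either line, and for each of Lamb1, Lamb2, Lamc1 and Nid1 the 2 genes with the most similar pattern. Some genes that this rule names are not reported here. Markers and other genes were chosen after their values were seen. The 10 genes and the lists were chosen with earlier results of these data known. The motif search, tables and figures used Python 3.11.15 with pandas 2.3.3 and matplotlib 3.10.9.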

Additional observations from a re-analysis of the deposited data

How the results depend on the processing

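Over 449 alternatives for single laminin and nidogen genes, 404 kept the direction and the side of the threshold, 21 were called where the main result was not, 11 lost the call and 13 changed direction. In C18-4 cells the main test called 1 of 6 genes. It called 0 with no filter on low values, 0 without the mean-variance trend, 0 at the threshold of the study, 3 with the replicate block, 0 with the block and that threshold, 4 without replicate 3 of both groups, and 0 to 1 without any 1 library. Of the basement membrane list it called 1 of 31, and 0 with median-ratio scaling, 7 with the block, 15 without replicate 3 of both groups and 0 to 5 without any 1 library. In TM4 cells, without any 1 library, 0 to 4 of 5 genes and 0 to 19 of 23 list genes were called, the highest counts without shNC replicate 3. Without replicate 3 of both groups these counts were 4 and 22, beside 72.7% of all genes. The threshold of the study left 3 of 5 calls between the lines. The interaction called 0 to 1 of 6 genes without any 1 library. Without replicate 3 of both groups it called 4, beside 59.9% of all genes. These 4 include Nid2, which did not pass 0.17 RPKM in TM4 cells, so its call rests on values near 0 there. The cause of these changes was not tested.

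Directions changed only where libraries were left out, and none of these results was called by the main test. The log2 difference of Lama5 in C18-4 cells ranged from -0.23 to 0.11 without any 1 library, and it was above 0 without shNC replicate 3 and without shM5 replicate 1. For Nid2 the range was -0.11 to 0.011, above 0 without replicate 3 of either group, and 0.075 without replicate 3 of both. For Nid1 in TM4 cells it was -0.065 to 0.59, below 0 without shNC replicate 1 or 2. In the interaction it was -0.30 to 0.038 for Lama5 and -0.14 to 0.15 for Lamc1, and 0.10 for Lamc1 without replicate 3 of both groups.

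Over all genes, the C18-4 test called 68, and 4 with no filter, 45 without the trend, 0 at the threshold of the study, 1386 with the block, 0 to 237 without any 1 library and 3029 without replicate 3 of both groups. The TM4 test called 0, 7433 without shNC replicate 3 and 8016 without replicate 3 of both groups. The line contrast called 8596, and 3101 at the threshold of the study. The interaction called 12, and 27 with a pseudocount of 1, 57 with quantile normalization, 22 with median-ratio scaling, 4477 without TM4 shNC replicate 3 and 7022 without replicate 3 of both groups. Same-numbered TM4 libraries correlated at 0.0729, 0.0489 and 0.127 in their deviations and so share only a number, and shNC replicate 1 correlated best with shM5 replicate 2 (0.0787). With the replicate block TM4 still gave 0 calls, the interaction 2 and the line contrast 9023, and the block changed no call of a laminin or nidogen gene other than Lamb2 and Lamc1 in C18-4 cells. Differences of genes near 0 RPKM (Lama1, Lama2, Lama4) were not detectable at this depth.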

Other observations

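For the 4 genes tested in both lines, the genes with the most similar pattern over the 12 libraries were sought, as the smallest root mean square difference of log2(RPKM + 0.1) after each gene was centred on its own mean. Lamb1 lay closest to Taf5l (0.0532) and Mef2d (0.0700), beside an SD of 0.456 for Lamb1 itself. For Lamb2, Tecpr1 lay at 0.125, beside an SD of 0.501. Lamc1 lay closest to Slc12a2 (0.0721) and Yes1 (0.0932), beside an SD of 0.269. For Nid1, Paqr8 lay at 0.268 and Dtx2 at 0.274, beside an SD of 1.48. None of the genes named here is a laminin, a nidogen or a member of the basement membrane list. The values share libraries and are a description with no test.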
